A study of Mus musculus with 2 samples.

Results

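Cells make cholesterol and fatty acids in the cytosol and endoplasmic reticulum and burn fatty acids in mitochondria, and RNA for enzymes of these routes was compared between 2 mouse acute promyelocytic leukaemias, APL#2 and APL#1. The members were chosen by symbol, as rows of the deposited gene table whose gene name equals 1 of 36 listed genes. All 36 were found among 23235 rows, as 14 genes of sterol synthesis and its regulation, 10 of fatty acid synthesis and 12 of mitochondrial beta-oxidation. In this disease the fusion protein PML-RAR blocks maturing granulocytes near the promyelocyte stage. The series describes the leukaemias as clones with different frequencies of leukaemia-initiating cells, and the sources used here do not say which has the higher frequency.

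Each leukaemia is represented by 1 library. APL#2 and APL#1 carry the same labels otherwise: PML-RAR KI APL as genotype, mCG-PML-RAR transgenic mice as source, C57BL/6-Ly5.2 as strain, 10 weeks as age and no treatment, although the sample titles hold the letters VEH, which are not explained. Cells were passed through CD45.1+ recipients that had not been irradiated and so kept their own blood cells, with 200000 cells injected for APL#2 and 2000000 for APL#1. CD45.2+ cells were recovered from spleen on immunomagnetic columns. The leukaemia, the recipient, the injected dose and the library cannot be told apart, no difference below has a replicate check, and no test was run. In such bulk RNA, fewer cells of a type and less RNA per cell cannot be told apart either.

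Values are FPKM, fragment counts normalised for transcript length and for depth, so that levels of different genes can be set side by side. From the smallest values, 1 fragment on 1 kb of transcript was worth about 0.0180 FPKM in APL#2 and 0.0194 FPKM in APL#1, which corresponds to scaling totals of about 55600000 fragments in APL#2 and 51400000 in APL#1. The promyelocyte markers fixed as a check were present. Their FPKM summed to 177.8 in APL#2 and 710.2 in APL#1, with all 5 at a mean of at least 1, and the difference came mainly from Mpo, myeloperoxidase (157.3 FPKM in APL#2, 661.8 in APL#1). Elane had 5.01 FPKM in APL#2 against 32.4 in APL#1, Prtn3 had 2.45 against 3.45, and Ptprc had 4.10 against 4.66. Ctsg went the other way, at 8.99 FPKM in APL#2 against 7.89 FPKM in APL#1. Markers of B cells (4 genes, 0.323 FPKM in sum in APL#2 and 0.161 in APL#1) and of T cells (4 genes, 0.113 in APL#2 and 0.0526 in APL#1) were low. Erythroid markers summed to 0 in APL#2 and 0.0209 in APL#1 over the 2 in the table, and of 4 adipocyte markers 3 were at 0 in both libraries, with Lep at 0.0953 in APL#2 and 0 in APL#1. Of macrophage markers, 4 were in the table, summing to 1.64 FPKM in APL#2 and 1.63 in APL#1, with Marco at 0 in both. Among them Emr1, which encodes the macrophage marker F4/80, had 0.537 FPKM in APL#2, against 0.0230 FPKM in APL#1. Cd68, the best expressed of them, went the other way, at 1.01 FPKM in APL#2 against 1.54 FPKM in APL#1. Csf1r was low, at 0.101 FPKM in APL#2 against 0.0667 FPKM in APL#1. The 4 endothelial and stromal markers summed to 1.63 in APL#2 and 3.64 in APL#1, almost all of it Pecam1, and Col3a1 was at 0 in both. The part of these cells in the differences below was not tested.

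As background, sterol and fatty acid synthesis share part of their control, through the SREBP transcription factors. These factors are held in the endoplasmic reticulum by Scap and the Insig proteins while sterols are plentiful. When sterols fall, the factors are cut free to switch on synthetic enzymes. Both routes start from acetyl-CoA. Beta-oxidation runs the opposite way: carnitine carriers bring long-chain acyl groups into mitochondria, and a cycle of dehydrogenation, hydration, a second dehydrogenation and thiolysis shortens them.

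Most members had a mean below 1 FPKM over the libraries, as did most genes. A gene with a mean of at least 1 FPKM is called measured here, which held for 16 of 36 members and 4100 of 23235 rows. Over those above 0 in either library, the members had medians of 0.857 FPKM in APL#2 and 0.991 in APL#1. All genes had medians of 0.403 in APL#2 and 0.455 in APL#1. No measured member was at least 2-fold apart on the log2(FPKM + 1) scale, in either direction. Among all measured genes, 2.1% were at least 2-fold higher in APL#2 and 2.44% at least 2-fold lower, so a count of 0 in 16 genes lies near the background. The median log2(FPKM + 1) difference, APL#2 minus APL#1, was -0.19 over the 16 measured members and -0.17 over all measured genes.

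Because so many members lie below 1 FPKM, where adding 1 hides a ratio, plain ratios of FPKM were also taken over genes with a mean of at least 0.1 FPKM and a value above 0 in both libraries. This rule was chosen after the values were seen. It keeps 33 members and 10105 genes in all. Of the 33 members, 26 were lower in APL#2 by any amount, or 78.8%, against 67.5% of all genes. The median ratio of APL#2 to APL#1 was 0.807 over the members and 0.852 over all genes. A ratio of at least 2 was reached by 1 member in each direction, Cpt1a toward APL#2 and Fads2 toward APL#1, beside 4.88% of all genes at least 2-fold higher in APL#2 and 8.41% at least 2-fold lower.

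**Figure D1:**
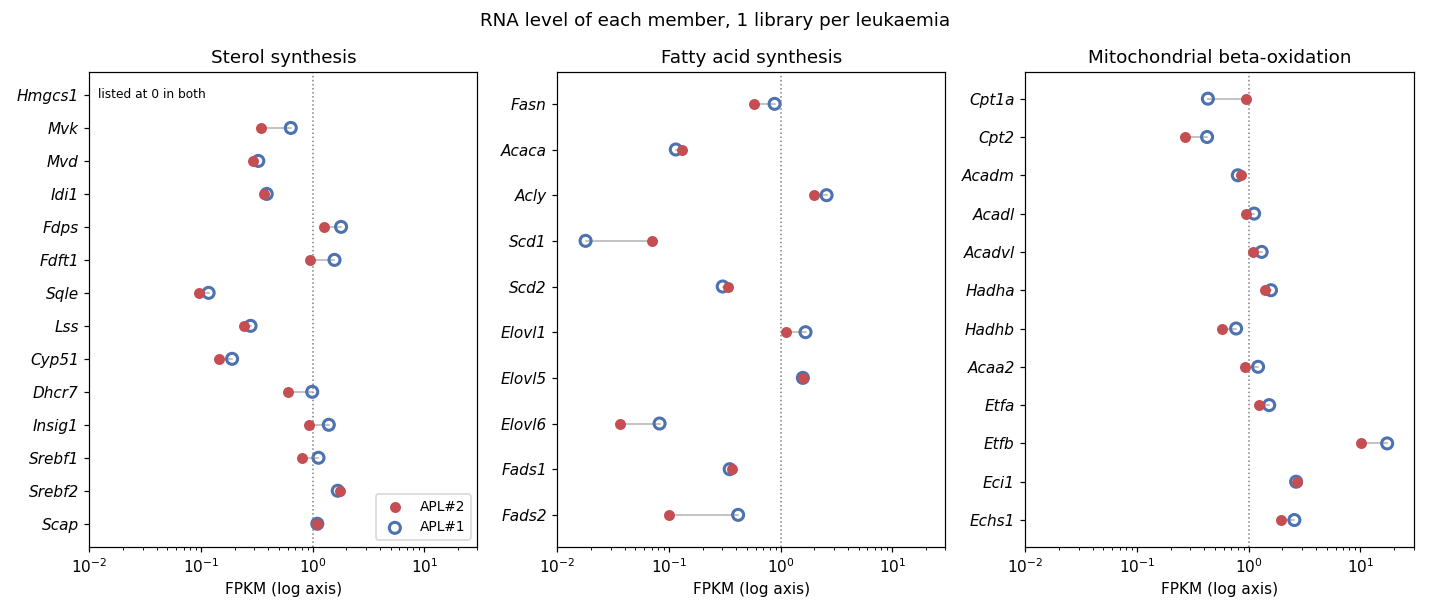
FPKM on a log axis for each member in APL#2 (filled red points) and APL#1 (open blue rings), 1 library each, with a grey line joining the values of a gene and a dotted line at 1 FPKM. Most pairs lie close together and below 3 FPKM; Etfb stands highest, Scd1, Elovl6 and Fads2 lie low and apart, and Hmgcs1 is listed at 0 in both libraries.

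Sterol synthesis enzymes were lower in APL#2 in every case with a value above 0, at ratios on both sides of the all-gene ratio. Of the 10 enzymes, 9 had a value and all 9 had less FPKM in APL#2, beside 67.5% of all genes with a mean of at least 0.1 FPKM. Their median ratio was 0.760 against 0.852 for all genes, and 6 of the 9 lay below the all-gene ratio. Their summed level was 4.31 FPKM in APL#2 and 6.29 FPKM in APL#1. Over all 14 genes of the sterol group, 5 were measured, and their median log2(FPKM + 1) difference was -0.30, or -0.13 relative to all genes.

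The first steps build mevalonate and isoprenoid units. Hmgcs1, which makes HMG-CoA, was listed at 0 in both libraries. Its row sits on an unplaced piece of chromosome 13, where an exact 0 need not mean absence: of 88 rows on unplaced pieces, 83 were at 0 in both libraries (94.3%), against 39.3% of rows on whole chromosomes. Mvk, mevalonate kinase, had 0.344 FPKM in APL#2, against 0.637 FPKM in APL#1, a ratio of 0.541, the lowest among the sterol genes. Mvd, which decarboxylates mevalonate diphosphate, had 0.291 FPKM in APL#2, against 0.326 FPKM in APL#1. The isomerase Idi1 was nearly level, at 0.364 FPKM in APL#2 against 0.387 FPKM in APL#1.

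The enzymes that join isoprenoids into squalene were the best expressed of the 10 sterol enzymes among the members. Fdps, farnesyl diphosphate synthase, had 1.27 FPKM in APL#2, against 1.80 FPKM in APL#1. Fdft1, squalene synthase, had 0.942 FPKM in APL#2, against 1.57 FPKM in APL#1, a ratio of 0.600. They were the 2 measured enzymes of that set.

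Squalene is then oxidised, closed into a ring and trimmed to cholesterol, and among the members of these steps the RNAs were scarce apart from the last. Sqle, squalene epoxidase and a rate-controlling step, had 0.0953 FPKM in APL#2, against 0.117 FPKM in APL#1. Lss, which closes the ring to lanosterol, had 0.245 FPKM in APL#2, against 0.278 FPKM in APL#1. Cyp51, the lanosterol demethylase, had 0.144 FPKM in APL#2, against 0.190 FPKM in APL#1. Dhcr7, which makes the final reduction, was higher than these in level, at 0.607 FPKM in APL#2 against 0.991 FPKM in APL#1, a ratio of 0.612.

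The regulators of the pathway were lower in APL#2 or about level. Insig1, the sterol-dependent anchor that is itself switched on by SREBP, had 0.933 FPKM in APL#2, against 1.40 FPKM in APL#1, a ratio of 0.669. Srebf1, whose product favours fatty acid genes, had 0.798 FPKM in APL#2, against 1.13 FPKM in APL#1. Both were lower in APL#2, like the enzymes. Srebf2, whose product favours sterol genes, was nearly level, at 1.76 FPKM in APL#2 against 1.68 FPKM in APL#1. It was the 1 sterol member with the larger value in APL#2. Scap, the SREBP escort protein, was level, at 1.08 FPKM in APL#2 against 1.10 FPKM in APL#1. The ratio of Srebf2 to Srebf1 was 2.21 in APL#2 and 1.49 in APL#1. RNA level does not show how much SREBP was cut free.

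None of these sterol differences exceeds its error in the deposited table. The standard error implied there, the size of log2 ratio over test statistic, ran from 0.80 to 1.54 (log2) over the sterol genes. For Mvk the log2 ratio was -0.89 with an implied error of 1.20, and for Fdft1 it was -0.74 with 1.30. That error comes from the authors' model of variability and not from replicates.

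Promoter windows of Insig1 and Mvk are shown because Mvk had the lowest ratio of the sterol genes and Insig1 is a measured SREBP target among the regulators. RefSeq windows, GRCm38.p6, run from 250 bases before to 50 bases after the start of a gene, and 29 of the 36 members had one. Fdps, Fdft1, Sqle, Scd1, Scd2, Fads1 and Acaa2 had none. The Insig1 window is chr5:28071162-28071461 on the plus strand and that of Mvk is chr5:114444019-114444318 on the plus strand. Each is printed 5′ to 3′ on the strand of its gene. Capitals mark 3 motifs, searched on both strands: TCACCCC, the core of a sterol regulatory element, to which SREBP binds, CACGTG, an E-box, and CCAAT, the box bound by NF-Y, a partner of SREBP at sterol promoters. These motifs do not overlap one another in the windows shown.
Insig1: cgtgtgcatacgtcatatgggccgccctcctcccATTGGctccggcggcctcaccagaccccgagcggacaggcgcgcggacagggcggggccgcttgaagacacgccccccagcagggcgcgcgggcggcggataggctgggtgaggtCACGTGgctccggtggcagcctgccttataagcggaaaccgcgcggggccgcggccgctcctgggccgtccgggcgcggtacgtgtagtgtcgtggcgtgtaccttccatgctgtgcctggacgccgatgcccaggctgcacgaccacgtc
Mvk: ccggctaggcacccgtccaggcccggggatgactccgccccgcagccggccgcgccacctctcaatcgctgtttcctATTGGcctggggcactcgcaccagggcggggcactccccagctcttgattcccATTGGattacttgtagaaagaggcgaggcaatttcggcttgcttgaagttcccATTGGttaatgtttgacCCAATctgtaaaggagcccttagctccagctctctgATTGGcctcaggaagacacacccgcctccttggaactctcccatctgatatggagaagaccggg

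Mvk held 5 CCAAT matches, and Insig1 held 1 CCAAT and 1 E-box match. Of 11 sterol members with a window, 10 held CCAAT in at least 1 window, all but Scap, whereas 41.1% of the 27025 genes in the table of promoters did; Dhcr7 and Srebf1 have 3 windows each and Scap 2, which raises their number of letters searched. Counted by window, 11 of 16 sterol windows held it, against 37.4% of all windows. CCAAT was found for 4 of 7 fatty acid synthesis members and 3 of 11 beta-oxidation members. The TCACCCC core was found for 2 of 29 members, Hmgcs1 and Srebf2, against 5.61% of all genes, and in neither of the sterol windows shown. The E-box was found for 4 of 29 members, Dhcr7, Insig1, Scap and Elovl5, against 8.09% of all genes. A match is a description of letters and not a bound site.

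Fatty acid synthesis genes went both ways. Of 10 members, 6 were lower and 4 higher in APL#2, beside 60.9% lower among all genes above 0 in either library. The 6 include Elovl5, which was equal to 3 digits at 1.58 FPKM in both libraries. On chromosome 19 lie 3 of the 4 higher ones. Only Acly, Elovl1 and Elovl5 were measured, with a median log2(FPKM + 1) difference of -0.27, or -0.10 relative to all genes. Over the 8 members with a mean of at least 0.1 FPKM the median plain ratio was 0.875, against 0.852 for all genes, so the side of the all-gene value on which the group lies depends on the scale.

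The enzymes that supply and condense acetyl units were at or below the APL#1 level in APL#2, with Acaca as the exception. Acly, ATP citrate lyase, which makes cytosolic acetyl-CoA, had 1.97 FPKM in APL#2, against 2.58 FPKM in APL#1. Fasn, the fatty acid synthase itself, had 0.581 FPKM in APL#2, against 0.882 FPKM in APL#1, a ratio of 0.659. Acaca, the acetyl-CoA carboxylase that makes malonyl-CoA, was low and nearly level, at 0.130 FPKM in APL#2 against 0.115 FPKM in APL#1.

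Among elongases, Elovl1, which extends saturated very long chains, had 1.11 FPKM in APL#2, against 1.67 FPKM in APL#1. Elovl5, which extends polyunsaturated chains, stood at 1.58 FPKM in both libraries. Elovl6, which extends palmitate to stearate, was scarce, at 0.0366 FPKM in APL#2 against 0.0822 FPKM in APL#1. At about 12 fragments in APL#2 and 25 in APL#1, its ratio of 0.445 has a 95% exact counting interval of 0.203 to 0.917. The log2 ratio of -1.17 had a wider implied standard error of 1.26.

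Desaturases, which place double bonds, held the widest ratios in the group and pointed opposite ways. Scd1, a stearoyl-CoA desaturase, had 0.0707 FPKM in APL#2, against 0.0179 FPKM in APL#1, or about 19 fragments in APL#2 and 4 in APL#1. Its ratio of 3.96 has a counting interval of 1.46 to 17.8, and its log2 ratio of 1.98 had an implied standard error of 1.40. Scd2, the close relative that led in level, had 0.337 FPKM in APL#2, against 0.302 FPKM in APL#1. Reads of Scd1 and Scd2 may be shared between such similar genes, and the handling of shared reads by the authors was not stated. Fragment numbers were estimated from FPKM and the longest coding transcript in GENCODE M21, and these intervals cover counting error only.

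Fads2, the delta-6 desaturase that opens polyunsaturated fatty acid synthesis, had the lowest ratio of all members. It had 0.0992 FPKM in APL#2, against 0.416 FPKM in APL#1, or about 17 fragments in APL#2 and 67 in APL#1. Its ratio of 0.239 has a counting interval of 0.129 to 0.404. Fads1, the delta-5 desaturase that acts after it, was level at 0.368 FPKM in APL#2 against 0.349 FPKM in APL#1. The order of the pair thus differed: Fads1 was 3.71 times Fads2 in APL#2 and 0.840 times Fads2 in APL#1. In the authors' deposited table the p-value of Fads2 was 0.115, the smallest among the members, and its log2 ratio of -2.07 had an implied standard error of 1.31.

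**Figure D2:**
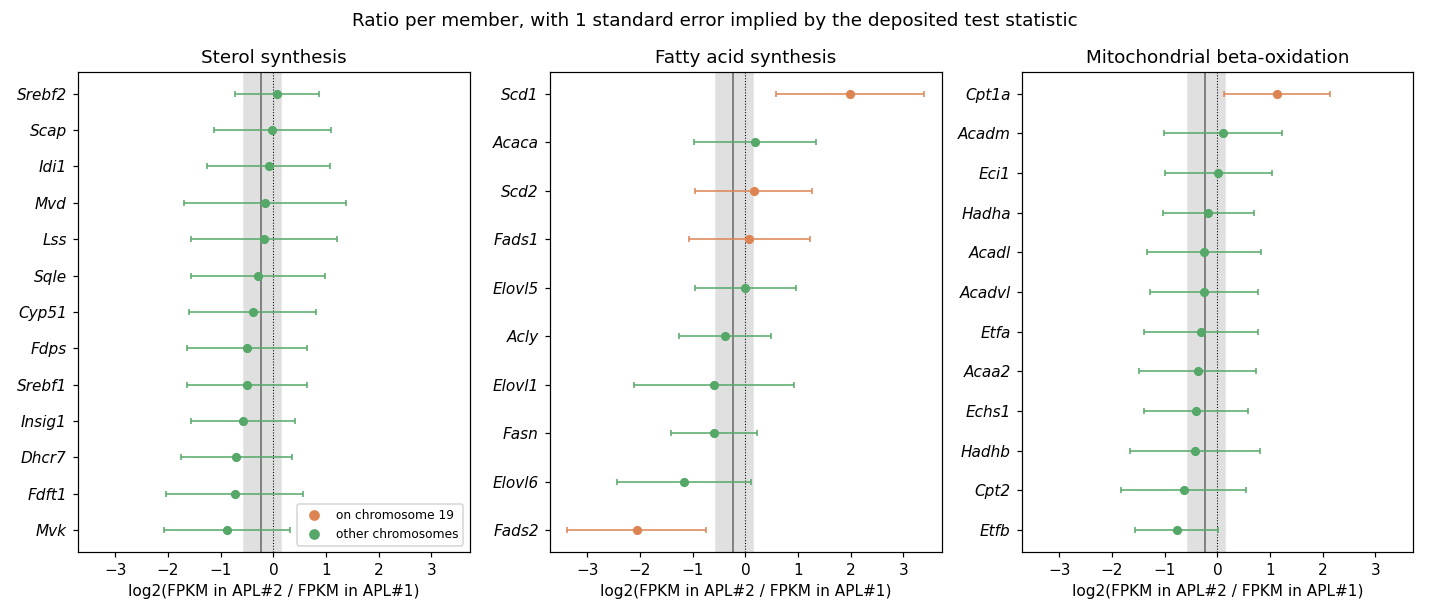
Log2 ratio of FPKM in APL#2 over APL#1 for the 35 members above 0, sorted within each group, with bars of 1 standard error implied by the authors' deposited test statistic. The grey band is the interquartile range over 10105 genes (-0.55 to 0.14), the solid line their median (-0.23) and the dotted line equality; Scd1, Cpt1a and Fads2, all on chromosome 19 (orange), and Elovl6 lie farthest from the band.

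Of the members, 5 lie on chromosome 19, Cpt1a, Scd1, Scd2, Fads1 and Fads2, and this chromosome stood apart from the others. Over 365 chromosome 19 genes with a mean of at least 0.1 FPKM the median ratio was 1.60 (interquartile range 1.29 to 1.90), and 9.32% were lower in APL#2. Over 9740 genes on all other chromosomes the median ratio was 0.841, and 69.6% were lower. Among the 365, Fads2 ranked lowest of all by ratio. Fads1 ranked 38 and Scd2 ranked 50 from the bottom, at 0.657 and 0.696 times the chromosome's median ratio, so both are level between libraries but below most of their chromosome. Cpt1a ranked 298, at 1.37 times the chromosome's median ratio and within the upper part of its spread. Scd1, under 0.1 FPKM in mean, was not ranked. The 31 other members are not on this chromosome, and none lies on chromosome 2 or 6.

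**Figure D3:**
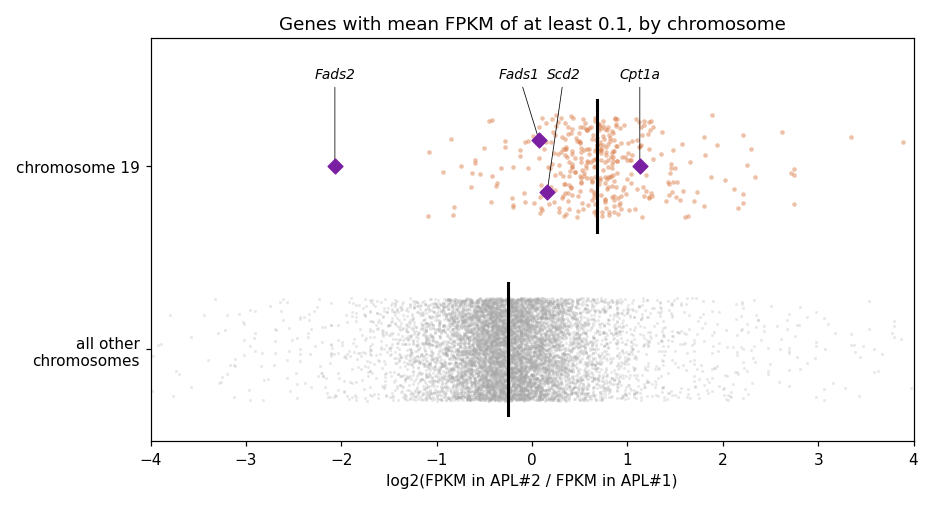
Log2 ratio of FPKM in APL#2 over APL#1 for the 365 chromosome 19 genes (upper row) and 9740 genes elsewhere (lower row) with a mean of at least 0.1 FPKM; black bars are medians, purple diamonds the 4 members, and vertical spread within a row carries no value. The upper row lies to the right at a median of 0.68 against -0.25, Fads2 at -2.07 stands left of every other chromosome 19 gene, and 55 genes of the lower row lie beyond the axis.

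Fads3, a desaturase-like gene next to Fads2, had a ratio like that of Fads2. It had 0.0317 FPKM in APL#2, against 0.131 FPKM in APL#1, a ratio of 0.241, at about 6 fragments in APL#2 and 25 in APL#1. Rab3il1, the next row beyond Fads3, was listed at 0 in APL#2 and stood at 0.0331 FPKM in APL#1, whereas Dagla, on the other side, stood at 0.116 FPKM in APL#2 and was listed at 0 in APL#1. The remaining genes within 200 kb that are above 0 in both libraries went with the chromosome or were level. Fth1, ferritin heavy chain, had 25.5 FPKM in APL#2, against 15.1 FPKM in APL#1, and Incenp, a chromosomal passenger protein, had 4.25 FPKM in APL#2, against 2.82 FPKM in APL#1. Fen1, a DNA repair nuclease, had 1.09 FPKM in APL#2, against 1.03 FPKM in APL#1. These neighbours were examined after the value of Fads2 was seen. In the deposited mm9 table Fads2 spans chr19:10138654-10175993, Fads3 chr19:10116038-10134161 and Fads1 chr19:10257378-10271362. The promoters of Fads2 (chr19:10101454-10101753, minus strand, GRCm38.p6) and of Cpt1a (chr19:3323051-3323350, plus strand, GRCm38.p6) are shown because these members had the ratios of at least 2 in opposite directions on 1 chromosome.
Fads2: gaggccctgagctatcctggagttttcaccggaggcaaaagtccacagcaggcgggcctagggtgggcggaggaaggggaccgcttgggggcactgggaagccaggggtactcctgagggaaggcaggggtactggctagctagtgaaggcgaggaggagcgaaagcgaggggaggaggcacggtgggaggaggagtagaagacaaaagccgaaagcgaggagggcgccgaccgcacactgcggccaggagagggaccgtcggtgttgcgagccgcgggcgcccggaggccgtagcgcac
Cpt1a: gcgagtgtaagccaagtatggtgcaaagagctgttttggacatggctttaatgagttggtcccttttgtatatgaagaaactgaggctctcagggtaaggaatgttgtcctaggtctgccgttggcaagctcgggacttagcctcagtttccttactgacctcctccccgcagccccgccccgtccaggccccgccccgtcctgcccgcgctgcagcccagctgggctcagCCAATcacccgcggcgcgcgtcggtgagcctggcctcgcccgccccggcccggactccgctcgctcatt

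Fads2 held none of the 3 motifs in this window and Cpt1a held 1 CCAAT, in capitals.

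**Figure D4:**
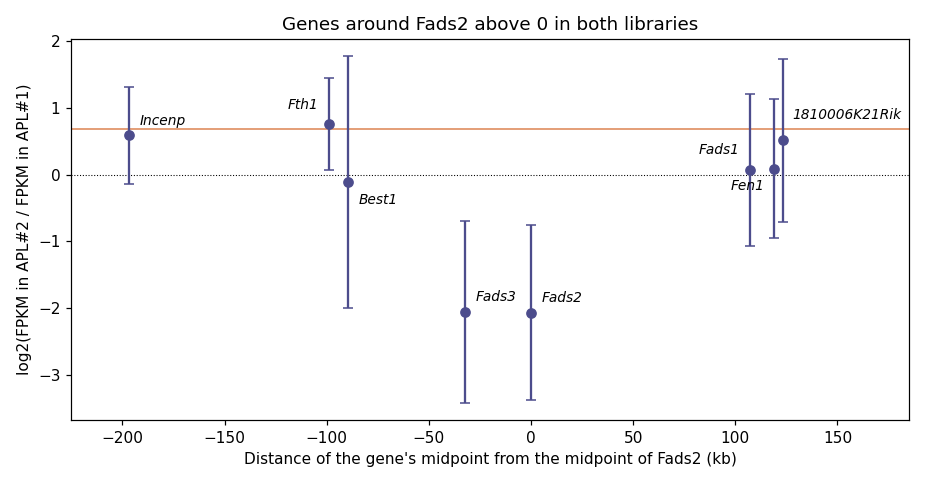
Log2 ratio of FPKM in APL#2 over APL#1 for genes within 200 kb of Fads2 that are above 0 in both libraries, against the distance of their midpoints from that of Fads2 in kb, with bars of 1 implied standard error; the orange line is the chromosome 19 median. Fads2 and Fads3 lie near -2.07 and -2.05, whereas Fads1, on the far side, lies at 0.07.

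Mitochondrial beta-oxidation genes were the best expressed of the 3 groups and followed the general shift. Their median was 1.02 FPKM in APL#2 and 1.26 in APL#1, whereas all genes above 0 in either library had medians of 0.403 in APL#2 and 0.455 in APL#1. Of 12 members, 9 were lower in APL#2, or 75%, near the 67.5% of all genes with a mean of at least 0.1 FPKM. The 8 measured ones split evenly around the all-gene median, with 4 above and 4 below, and their median log2(FPKM + 1) difference was 0.01 relative to all genes.

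Carnitine transferases opened the route in opposite ways. Cpt1a, the rate-limiting outer-membrane transferase, had 0.943 FPKM in APL#2, against 0.431 FPKM in APL#1, or about 226 fragments in APL#2 and 96 in APL#1. Its ratio was 2.19, with a counting interval of 1.71 to 2.79, and its log2 ratio of 1.13 had an implied standard error of 1.00. Cpt2, the inner-membrane transferase, had 0.271 FPKM in APL#2, against 0.424 FPKM in APL#1, a ratio of 0.640.

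Acyl-CoA dehydrogenases take the first step of each cycle, each for a range of chain lengths. Those among the members differed little, and Acads and Acad10, outside the members, are given further below. Acadvl, for very long chains, had 1.09 FPKM in APL#2, against 1.31 FPKM in APL#1. Acadl, for long chains, had 0.939 FPKM in APL#2, against 1.12 FPKM in APL#1. Acadm, for medium chains, had 0.857 FPKM in APL#2, against 0.799 FPKM in APL#1. Their ratios of 0.836, 0.839 and 1.07 bracket the all-gene ratio of 0.852.

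The electron transfer flavoprotein carries electrons from these dehydrogenases and is made of an alpha and a beta subunit. Etfb, the beta subunit, was by far the best expressed member, at 10.2 FPKM in APL#2 against 17.4 FPKM in APL#1, percentile 97.3 of genes above 0 in APL#2 and percentile 98.1 in APL#1. Its ratio was 0.585, with a counting interval of 0.522 to 0.654, and its log2(FPKM + 1) difference of -0.72 was the widest of the measured members. The log2 ratio of -0.77 had an implied standard error of 0.78. Etfa, the alpha subunit, had 1.23 FPKM in APL#2, against 1.53 FPKM in APL#1. Etfb RNA was 8.27 times Etfa RNA in APL#2 and 11.4 times in APL#1.

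The later steps of the cycle were close between the libraries. Hadha and Hadhb encode the subunits of the mitochondrial trifunctional protein, which performs the last 3 reactions on long chains. Hadha had 1.40 FPKM in APL#2, against 1.58 FPKM in APL#1, whereas Hadhb had 0.574 FPKM in APL#2 against 0.772 FPKM in APL#1. Hadha exceeded Hadhb 2.44 times in APL#2 and 2.05 times in APL#1. Echs1, the short-chain enoyl-CoA hydratase, had 1.93 FPKM in APL#2, against 2.57 FPKM in APL#1. Acaa2, the mitochondrial thiolase, had 0.936 FPKM in APL#2, against 1.21 FPKM in APL#1. Eci1, an isomerase needed for unsaturated chains, was level at 2.70 FPKM in APL#2 against 2.66 FPKM in APL#1.

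Promoter windows of Hadha and Etfb are shown, the first because Hadha and Hadhb start back to back and the second because Etfb had the highest level. In mm9, 341 bases separate the Hadha and Hadhb rows. Their GRCm38.p6 windows, chr5:30154931-30155230 on the minus strand for Hadha and chr5:30155003-30155302 on the plus strand for Hadhb, share 228 bases. The Etfb window is chr7:43443822-43444121 on the plus strand.
Hadha: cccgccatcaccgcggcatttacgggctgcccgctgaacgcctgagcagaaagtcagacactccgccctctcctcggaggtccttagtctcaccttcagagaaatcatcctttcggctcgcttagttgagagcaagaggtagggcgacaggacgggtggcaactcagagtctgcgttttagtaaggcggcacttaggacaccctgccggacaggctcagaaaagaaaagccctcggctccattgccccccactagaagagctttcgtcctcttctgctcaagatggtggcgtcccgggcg
Etfb: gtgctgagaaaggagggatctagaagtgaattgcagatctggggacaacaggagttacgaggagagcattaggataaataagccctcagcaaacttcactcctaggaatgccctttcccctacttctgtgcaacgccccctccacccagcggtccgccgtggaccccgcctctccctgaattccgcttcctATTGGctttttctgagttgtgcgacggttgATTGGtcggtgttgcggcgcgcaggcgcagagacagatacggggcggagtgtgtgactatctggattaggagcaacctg

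Etfb held 2 CCAAT matches, in capitals, and Hadha held none of the 3 motifs. The ratios of the back-to-back pair were 0.885 for Hadha and 0.744 for Hadhb, a gap within their implied standard errors of 0.87 and 1.24 (log2).

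Other genes of the 3 routes were taken from wider lists. Of 27 other sterol genes that have a row, 5 were measured, as were 5 of 27 other fatty acid genes and 6 of 31 other beta-oxidation genes, and none was at least 2-fold apart on the log2(FPKM + 1) scale. Of those above 0, 20 of 25 sterol, 15 of 21 fatty acid and 20 of 28 beta-oxidation genes were lower in APL#2, beside 60.9% of all genes above 0 in either library. Plain ratios, at a mean of at least 0.1 FPKM, were available for 22 sterol, 14 fatty acid and 25 beta-oxidation genes. Of these, 1 fatty acid and 1 beta-oxidation gene were at least 2-fold higher in APL#2, beside 4.88% of all genes. At least 2-fold lower were 1 sterol gene and 2 beta-oxidation genes, beside 8.41% of all genes. The 4 with the highest mean in each list follow.

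Around sterols, Nr1h2, the sterol-sensing liver X receptor beta, had 3.11 FPKM in APL#2, against 4.54 FPKM in APL#1. Lbr, a nuclear envelope protein with sterol reductase activity, had 2.57 FPKM in APL#2, against 2.87 FPKM in APL#1. Npc2, which carries cholesterol out of lysosomes, had 1.91 FPKM in APL#2, against 3.14 FPKM in APL#1. Mbtps1, the site-1 protease that cuts SREBP, had 0.994 FPKM in APL#2, against 1.25 FPKM in APL#1. All 4 were lower in APL#2, at ratios between 0.610 and 0.896.

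Around fatty acid synthesis, Tecr, a reductase of chain elongation, had 4.98 FPKM in APL#2, against 5.56 FPKM in APL#1. Ptpla, an elongation dehydratase, had 1.52 FPKM in APL#2, against 2.18 FPKM in APL#1. Acsl1, an acyl-CoA synthetase, had 1.27 FPKM in APL#2, against 1.57 FPKM in APL#1. Slc25a1, the mitochondrial citrate carrier that feeds Acly, had 0.845 FPKM in APL#2, against 1.40 FPKM in APL#1, a ratio of 0.603. These 4 were lower in APL#2, whereas the fifth measured gene of the list, Acsl5, went the other way. Acsl5, an acyl-CoA synthetase on chromosome 19 that was named after its values were seen, had 1.29 FPKM in APL#2, against 0.748 FPKM in APL#1, a ratio of 1.73.

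Around beta-oxidation, Ech1, a dienoyl-CoA isomerase, came closest to the 2-fold limit, at 3.83 FPKM in APL#2 against 8.05 FPKM in APL#1. Its log2(FPKM + 1) difference was -0.91 and its plain ratio 0.475, with a log2 implied standard error of 0.87. Hadh, the short-chain hydroxyacyl-CoA dehydrogenase, had 1.93 FPKM in APL#2, against 2.66 FPKM in APL#1. Hsd17b10, a mitochondrial dehydrogenase, had 1.74 FPKM in APL#2, against 2.42 FPKM in APL#1. Acads, for short chains, had 1.09 FPKM in APL#2, against 1.96 FPKM in APL#1, a ratio of 0.556.

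No member passed in the authors' deposited table, which calls 0.0473% of its rows at q of at most 0.05; 0 members had an unadjusted p of at most 0.05 there, against 0.968% of all rows. After Fads2, the smallest p-values in the authors' deposited table were 0.156 for Scd1 and 0.261 for Cpt1a. These 3 members alone differed by more than 1 implied standard error on the log2 scale. Those p-values set 1 library against 1 library.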

How the data were processed

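RNA from CD45.2+ leukaemic cells of mouse spleen was sequenced, 1 library for APL#2 and 1 for APL#1, with groups taken from the sample descriptions. Per the submitters' processing notes, TopHat2 2.0.10, Cufflinks, Cuffdiff and mm9 were used, with no role or order; read layout, strand, annotation and filters: not given in the sources used here. Both value columns deposited by the authors were read as FPKM from the layout of the table, whose header names no unit. The test statistic, a score per gene, and the p-value and q-value are the authors', per the file headers. Positions of genes are those of the deposited table, with starts counted from 1. Results on 2 genes of the wider lists are not reported here.

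Differences are log2((FPKM in APL#2 + 1)/(FPKM in APL#1 + 1)) for measured genes (mean FPKM at least 1), on which scale low genes are understated; plain ratios are FPKM in APL#2 over APL#1. The authors' implied standard error is the size of log2 ratio over test statistic. Depth came from 26 genes with 1 transcript of at least 1 kb that appear to hold 1 fragment, out of 305 genes at the commonest APL#1 to APL#2 ratio (1.08, within 0.1%). Counting intervals are exact binomial at 95% and cover counting error only. The FPKM summed to 35239.9 in APL#2 and 34893.9 in APL#1. All members are named; of other pathway genes, the measured ones at least 2-fold apart on the log2(FPKM + 1) scale and the 4 of highest mean per list, and any other gene was named after its values were seen. The members and lists were chosen with earlier results of these data known. Of the wider lists, 27 of 29 sterol, 27 of 31 fatty acid and 31 of 32 beta-oxidation symbols were in the table, several being alternative names of 1 gene. No test was made with 1 library a group. Python 3.11.15, pandas 2.3.3, scipy 1.17.1 and matplotlib 3.10.9 were used, and the computations were tested on simulated data.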

Additional observations from a re-analysis of the deposited data

How the results depend on the processing

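The finding that no measured member was at least 2-fold apart kept its value of 0 in each direction under every planned setting (pseudocounts of 0.1 and 0.01, no filter, a mean of at least 5 FPKM, no centring, upper-quartile centring, and without chromosome 19, the middle of chromosome 2 and distal chromosome 6). Most of these settings left little room for change. The count was taken on uncentred values, so the centring could not alter it. The smaller pseudocounts kept the filter at a mean of 1 FPKM, which leaves out Cpt1a, Fads2 and Scd1. Without the filter, 1 was still added to each value. With a pseudocount of 0.1 and the filter set aside, Cpt1a stood at 1.22 and Fads2 at -1.12 relative to all genes. With plain ratios over genes with a mean of at least 0.1 FPKM, added after the data were seen, the count was 1 higher (Cpt1a) and 1 lower (Fads2). The median differences relative to all genes were -0.13 for sterol synthesis, -0.10 for fatty acid synthesis, 0.01 for beta-oxidation and -0.01 for all members; movements over 0.1 were as follows. With no centring they were -0.30, -0.27, -0.16 and -0.19, by construction, since the all-gene median is -0.17. With a pseudocount of 0.01 sterol synthesis stood at -0.23. With no filter beta-oxidation stood at -0.15 and all members at -0.12, many genes at 0 entering the all-gene median. At a mean of at least 5 FPKM only Etfb remained, so beta-oxidation and all members stood at -0.56, and the synthesis groups had no value. With plain ratios fatty acid synthesis stood at 0.037. Signs near 0 turned: beta-oxidation was -0.02 with a pseudocount of 0.01, and all members 0.00 without the 3 chromosome stretches. Of 245 recomputed values of single members, 3 moved by more than the implied standard error: with a pseudocount of 0.01 Scd1 stood at 1.79 and Fads2 at -1.70 relative to all genes, and with plain ratios Fads2 stood at -1.84. That error is wide, at 0.78 to 1.54 (log2) over the members, so this count does not show that single values are stable. Within it, a pseudocount of 0.01 took Cpt1a from 0.61 to 1.37. It turned the sign of Elovl6, from 0.11 to -0.73, of Cpt2, from 0.01 to -0.37, and of Cyp51, from 0.12 to -0.11, among others. Hmgcs1, at 0 in both and with no such error, moved with the centring alone in 2 settings. No paired analysis was possible because each leukaemia has 1 library, for which reason no replicate could be left out. Depth limits Scd1, Elovl6, Sqle, Mvd and Fads2, which rest on under 30 estimated fragments in at least 1 library.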

Other observations

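Some further lipid genes, named after their values were seen, had wide ratios at low levels. Acss2, which makes acetyl-CoA from acetate, had 0.357 FPKM in APL#2, against 0.0798 FPKM in APL#1, about 58 fragments in APL#2 and 12 in APL#1. Ehhadh, the peroxisomal bifunctional enzyme, had 0.0461 FPKM in APL#2, against 0.181 FPKM in APL#1, about 8 fragments in APL#2 and 28 in APL#1. Acad10, of the acyl-CoA dehydrogenase family, had 0.534 FPKM in APL#2, against 0.266 FPKM in APL#1, a ratio of 2.01. Cpt1b, the muscle form of the outer carnitine transferase, stood at 0.239 FPKM in APL#2 and was listed at 0 in APL#1. Npc1, which works with Npc2 in lysosomes, had 0.188 FPKM in APL#2, against 0.402 FPKM in APL#1, a ratio of 0.467. Ppara and Ppargc1a, regulators of beta-oxidation in liver and muscle, were listed at 0 in both libraries, as was Me1. In the authors' deposited table the p-values of Acss2, Ehhadh and Cpt1b were 0.114, 0.134 and 0.198.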
